A study of Caenorhabditis elegans with 12 samples.

Results

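The insulin-like peptide genes of *C. elegans* were taken as every gene of the deposited expression table whose symbol in the WBcel235 annotation is *ins-* followed by a number, together with *daf-28*. The rule returned 39 of the 46726 genes in the table, and no annotated gene that fits the rule was absent from it. RNA was sequenced from whole worms (hermaphrodites, per the study) in 4 groups of 3 libraries: *alh-6* day 3 adults, WT day 3 adults, *alh-6* L4 and WT L4. The *alh-6* groups carry the *lax105* allele of *alh-6*, which encodes a mitochondrial enzyme of proline catabolism, and the WT groups are N2 Bristol. All animals hatched overnight from prepared eggs, were placed as synchronized L1 larvae on NGM plates seeded with OP50 bacteria, and were collected 48 hr later as L4 or 120 hr later as day 3 adults. The study compared both genotypes at both stages to find transcriptional signatures of *alh-6* loss in younger and older animals. The libraries are labelled as replicates of a group, and the study's figure legends give its experiments as biological triplicates or more. Nothing in the labels says that the libraries came from separate cultures, so p-values measure the spread between these libraries.

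Insulin-like peptides are small secreted hormones of the insulin and relaxin superfamily. In *C. elegans* they act on the receptor tyrosine kinase DAF-2, and agonist peptides signal through the lipid kinase AGE-1 and the kinases PDK-1 and AKT-1 to hold the FOXO transcription factor DAF-16 out of the nucleus, while antagonist peptides oppose this. The pathway is known for its control of dauer entry, larval growth, germline proliferation, stress resistance and adult lifespan. Many of the peptides are made in sensory neurons and others in the intestine, and their precursors are cut by proprotein convertases and released from dense core vesicles.

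All 39 genes are annotated as protein coding, and 33 of them have a single splice form. Their longest coding sequences have between 66 and 217 codons, with a median of 102. In WBcel235, 15 members lie on chromosome II, 10 on I, 5 on III, 4 on IV, 3 on V and 2 on X. Of the 39, 25 lie within 20 kb of another member, in 7 runs. The longest run holds 7 genes, in the order *ins-28*, *ins-29*, *ins-25*, *ins-27*, *ins-24*, *ins-30* and *ins-26*, between bases 14012369 and 14037777 of chromosome I. A run of 6 genes, *ins-2*, *ins-3*, *ins-4*, *ins-5*, *ins-6* and *ins-20*, lies between bases 5988524 and 6011321 of chromosome II. Shorter runs are *ins-13*, *ins-12* and *ins-11* on chromosome II, *ins-21*, *ins-22* and *ins-23* on III, and the pairs *ins-19* with *ins-31*, *ins-15* with *ins-14*, and *ins-8* with *ins-7*.

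Reads counted on genes ranged from 19248229 to 23575173 per library. Levels are in FPKM, the reads of a gene scaled to its length and to the reads counted in its library, and the whole reads behind each value could be recovered from the files. For a member of median length 1 FPKM stood for 7.74 reads per library, so most members were read from few molecules, and intervals on reads cover counting error only. The *alh-6* transcript itself averaged 33.6 ± 1.43 FPKM in *alh-6* day 3 adults and 33.2 ± 1.14 FPKM in WT day 3 adults, and 61.4 ± 1.11 FPKM in *alh-6* L4 and 69.7 ± 1.2 FPKM in WT L4 (SD, n = 3), so its RNA level does not tell the genotypes apart at day 3. Worms of the 2 stages differ in tissue: of 10 sperm markers all 10 were called lower in day 3 adults of both genotypes, and all 10 oocyte markers were called higher. Of 10 embryo markers 4 could be tested, and in each genotype 3 were called higher in day 3 adults and 1, *elt-7*, lower. Over all genes 22.7% were called higher in each genotype, and 43.5% were called lower in *alh-6* and 41.5% in WT. In whole worms fewer cells of a type and less RNA per cell cannot be told apart.

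The insulin-like genes were read at low levels. Only 7 of the 39 reached a mean of 5 FPKM in some group, 16 had their highest group mean between 1 and 5 FPKM, and 16 stayed under 1 FPKM. *ins-8* had no read in any library, and 14 members had fewer than 30 reads over all 12 libraries. A mean of at least 1 FPKM was reached by 6 members in *alh-6* day 3 adults, 9 in WT day 3 adults, 19 in *alh-6* L4 and 19 in WT L4. Summed over the 39 genes the level was 27 ± 7.47 FPKM in *alh-6* day 3 adults and 30.1 ± 3.18 FPKM in WT day 3 adults, against 95.8 ± 12.62 FPKM in *alh-6* L4 and 88.9 ± 2.05 FPKM in WT L4 (SD, n = 3). The sums at the 2 stages did not overlap, with a highest day 3 library of 34.7 FPKM and a lowest L4 library of 82.8 FPKM. The 2 genotypes overlapped at each stage.

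A few genes carried a large part of each sum, and apart from *ins-17* they were not the same at the 2 stages. The 3 highest members held 46.3% of the sum in *alh-6* day 3 adults, 46.8% in WT day 3 adults, 41.6% in *alh-6* L4 and 41.9% in WT L4. In *alh-6* day 3 adults these were *ins-34*, *ins-17* and *ins-27*, and in WT day 3 adults *ins-19*, *ins-34* and *ins-17*. At L4 *daf-28*, *ins-37* and *ins-17* led in both genotypes, with *daf-28* first in *alh-6* and *ins-37* first in WT. At L4 the libraries of *daf-28* and *ins-37* overlapped within each genotype, so the order of these 2 does not hold beyond their spread.

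**Figure D1:**
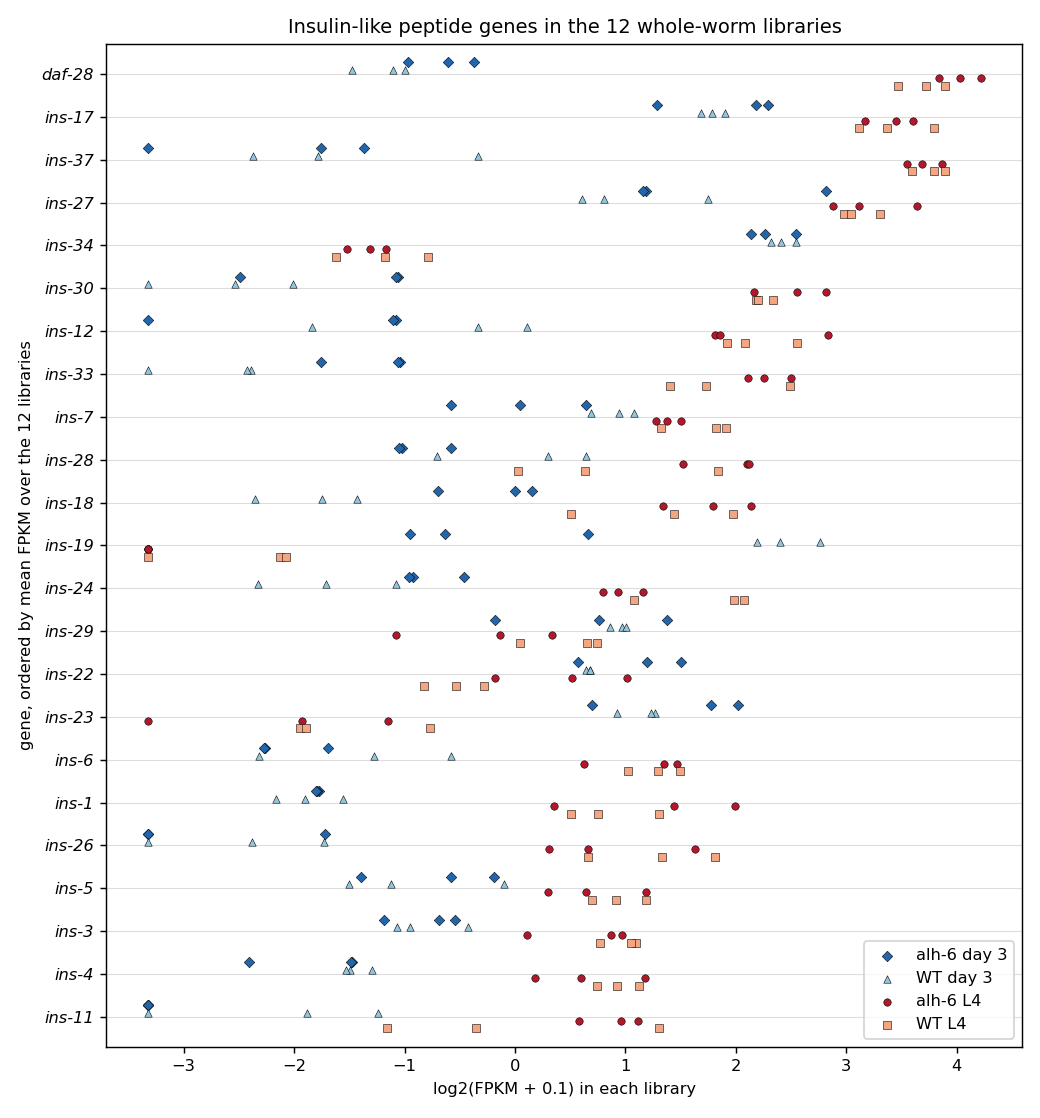
Level of the 23 insulin-like genes whose mean reached 1 FPKM in some group, as log2(FPKM + 0.1) in each of the 12 libraries (points, 3 per group, shifted up or down by group). Most L4 points lie to the right of the day 3 points of the same gene, *ins-34*, *ins-19* and *ins-23* show the opposite order, and the *ins-19* points of *alh-6* day 3 adults all lie left of those of WT day 3 adults.

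The first comparison asked which insulin-like genes differed between *alh-6* and WT in day 3 adults. Of the 8 members that reached 1 FPKM in 3 of the 6 libraries and could be tested, 1 was called lower in *alh-6* and 0 were called higher. A call needed a limma adjusted p under 0.05 over all genes and a change of at least 2-fold. Over all 10501 genes tested, 0.409% were called lower and 0.409% called higher. The called gene was *ins-19*, which reached the minimum level in all 3 WT libraries and in 1 *alh-6* library. A member could pass through the libraries of 1 genotype alone, so the minimum was not independent of the difference tested. These counts therefore do not describe the whole family. The median difference of the 8 was 0.01 on the log2 scale, beside -0.08 for all genes tested.

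*ins-19* (WBGene00002102) is a minus-strand gene (chromosome II, bases 3126037 to 3126441) that encodes a precursor of 106 codons. It had 0.417, 0.544 and 1.48 FPKM in *alh-6* day 3 adults, against 6.66, 5.17 and 4.48 FPKM in WT day 3 adults. The reads behind these values were 3, 4 and 11 in *alh-6* and 50, 40 and 37 in WT. The *alh-6* libraries all lay below the lowest WT library, and in WT day 3 adults this was the highest mean of the 39 members. The difference was -2.76 on the log2(FPKM + 0.1) scale (SE 0.39, limma adjusted p = 0.00789), and all 3 libraries of each group showed its direction. The call held in 12 of 13 alternative settings and was lost without *alh-6* day 3 replicate 2, where the difference was -2.60 and the adjusted p 0.0571. Over the 13 settings the difference ranged between -3.24 and -1.86.

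At L4 *ins-19* was close to unread in both genotypes, with 0 reads in the 3 *alh-6* libraries, and 1, 0 and 1 reads in the WT libraries. Its neighbour *ins-31*, whose start lies in the same run of 1.8 kb, had 0, 2 and 1 reads in *alh-6* day 3 adults and 15, 0 and 1 reads in WT day 3 adults. Almost all *ins-31* reads of the stage thus came from 1 WT library, and it was too low to test.

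*ins-7*, an intestinal and neuronal agonist whose expression DAF-16 is known to lower, stood next to *ins-19* in size of difference. It had 0.931, 0.57 and 1.46 FPKM in *alh-6* day 3 adults and 2.01, 1.51 and 1.83 FPKM in WT day 3 adults. The libraries did not overlap, but the highest *alh-6* and the lowest WT library were close together. The difference was -0.87 (SE 0.31, limma adjusted p = 0.11) and was not called. Without *alh-6* day 3 replicate 3 it was -1.17 with an adjusted p of 0.0264 and was called.

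Over the 8 members tested, *ins-7* and *ins-19* were the only ones whose libraries did not overlap, both lower in *alh-6*, and 0 were non-overlapping in the higher direction. Among all genes tested 24.5% were non-overlapping and lower and 8.28% non-overlapping and higher, so 2 of 8 is near the background. The other 6 had differences between -0.29 and 0.67, with *ins-34* at -0.11 (95% interval -0.42 to 0.20), *ins-17* at 0.12 (-0.41 to 0.66) and *ins-27* at 0.67 (-0.69 to 2.03). The wide interval of *ins-27* came with 1 high library, 6.96 FPKM in *alh-6* replicate 3, beside 2.18 and 2.13 FPKM in the other *alh-6* libraries and 3.26, 1.64 and 1.42 FPKM in WT. That replicate also had the highest summed level of the family at its stage. Among members too low to test at day 3, *ins-18*, *ins-24*, *ins-33* and *daf-28* were non-overlapping and higher in *alh-6*, and none was non-overlapping and lower. The matching shares over all genes too low to test were not worked out, so no result about the family is read from these members.

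*ins-18*, known as an antagonist of DAF-2 signalling, did not reach the minimum level for a test at day 3. It had 0.517, 1.01 and 0.9 FPKM in *alh-6* day 3 adults and 0.198, 0.0961 and 0.27 FPKM in WT day 3 adults, from 5, 10 and 9 reads and from 2, 1 and 3 reads. The *alh-6* libraries all lay above the WT libraries. *ins-33*, known to promote germline proliferation in larvae, had 2, 4 and 4 reads in *alh-6* and 0, 1 and 1 reads in WT at this stage. With all 12 libraries in 1 fit both genes entered the test and were called higher in *alh-6*, *ins-18* by 1.66 (adjusted p = 0.0332) and *ins-33* by 1.43 (adjusted p = 0.0368). In the day 3 fit with no minimum level neither was called, with limma adjusted p of 0.0919 for *ins-18* and 0.189 for *ins-33*.

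At L4 no insulin-like gene was called between *alh-6* and WT in either direction, out of 19 tested by limma, beside 2.45% of all 13851 genes called higher and 0.881% called lower. 3 of the 19 had an unadjusted p under 0.05, and limma-voom on the recovered reads also called 0. None of the 19 had libraries that did not overlap, where 17.3% of all genes were non-overlapping and higher and 20.3% non-overlapping and lower. *ins-22*, too low to test at this stage, was non-overlapping and higher in *alh-6* L4, and the share over genes that low was not worked out. The median difference of the 19 was -0.02, beside -0.03 for all genes tested.

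The 3 with the lowest p-values were *ins-24*, *ins-28* and *daf-28*. *ins-24* had 2.13, 1.63 and 1.81 FPKM in *alh-6* L4 and 3.85, 2.01 and 4.11 FPKM in WT L4, a difference of -0.75 (SE 0.27, limma adjusted p = 0.101). *ins-28* had 2.77, 4.2 and 4.25 FPKM in *alh-6* L4 and 1.45, 0.92 and 3.48 FPKM in WT L4, a difference of 1.08 (SE 0.43, adjusted p = 0.132). These 2 genes of the same run on chromosome I thus differed in opposite directions, and in each the *alh-6* and WT libraries overlapped. *daf-28*, an agonist of the sensory neurons ASI and ASJ that promotes reproductive growth over dauer entry, had 14.3, 16.2 and 18.5 FPKM in *alh-6* L4 and 14.8, 13.1 and 11 FPKM in WT L4. Its difference of 0.33 (SE 0.14, adjusted p = 0.132) was under 2-fold, and 1 WT library exceeded the lowest *alh-6* library. Single libraries decided these results: without WT L4 replicate 3 *ins-28* and *ins-11* (0.96 with all libraries) were called higher in *alh-6*, and without WT L4 replicate 2 *ins-24* was called lower.

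Of the other abundant L4 members, *ins-37* and *ins-17* had narrow intervals around no difference. *ins-37* had 11.6, 14.5 and 12.8 FPKM in *alh-6* L4 and 14.7, 12.0 and 13.7 FPKM in WT L4, a difference of -0.06 (95% interval -0.33 to 0.21). *ins-17* had 10.9, 12.1 and 8.92 FPKM in *alh-6* L4 and 10.2, 13.8 and 8.57 FPKM in WT L4, a difference of -0.02 (-0.43 to 0.40). For both genes the intervals leave out a change of 1.5-fold in either direction. *ins-30* and *ins-27* differed by 0.27 (-0.13 to 0.67) and 0.10 (-0.33 to 0.53), and the interval of *ins-30* reached past a rise of 1.5-fold.

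The peptides with the best known roles were among those that could not be told apart at L4. *ins-6*, an agonist that promotes dauer exit, had 2.44, 1.44 and 2.66 FPKM in *alh-6* L4 and 2.71, 1.94 and 2.36 FPKM in WT L4 (difference -0.13, 95% interval -0.71 to 0.46). *ins-4*, an agonist that acts with *daf-28* and *ins-6*, had 1.03, 2.16 and 1.42 FPKM in *alh-6* L4 and 1.8, 2.08 and 1.57 FPKM in WT L4 (-0.28, -0.92 to 0.36). *ins-1*, an antagonist known from learning and thermotaxis, had 1.175, 2.62 and 3.87 FPKM in *alh-6* L4 and 2.37, 1.33 and 1.58 FPKM in WT L4 (0.41, -0.52 to 1.33). The groups of all 3 overlapped, and their intervals reach past a change of 1.5-fold. *ins-18* differed by 0.45 (-0.39 to 1.29) and *ins-7* by -0.30 (-0.75 to 0.15).

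**Figure D2:**
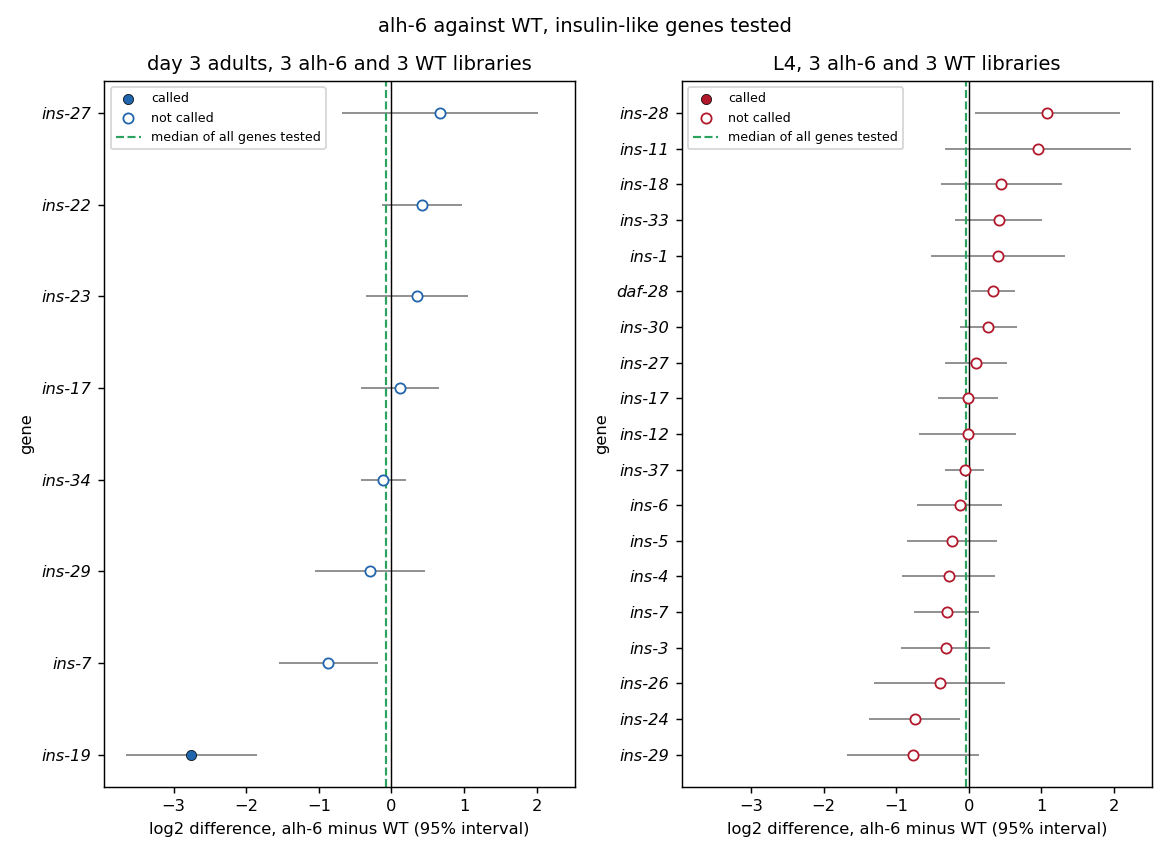
Difference between *alh-6* and WT for each insulin-like gene tested, in day 3 adults (left, 8 genes) and at L4 (right, 19 genes), as log2(FPKM + 0.1) of *alh-6* minus WT with the 95% interval from limma (n = 3 libraries per group). Filled points are called genes, of which *ins-19* at -2.76 in day 3 adults is the only one, and the dashed line is the median of all genes tested.

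Germline marker levels at L4 differed between the genotypes. Summed over 10 oocyte markers the level was 822 ± 37 FPKM in *alh-6* L4 and 1188 ± 46.8 FPKM in WT L4, and over 10 sperm markers it was 1528 ± 90.9 FPKM in *alh-6* L4 and 1997 ± 58.9 FPKM in WT L4 (SD, n = 3). Without a fold threshold all 10 oocyte markers and 7 of 10 sperm markers were lower in *alh-6* by limma adjusted p, where 7.15% of all genes were lower and 8.19% higher. Neuronal markers summed to 301 ± 20.7 FPKM in *alh-6* L4 and 300.3 ± 8.35 FPKM in WT L4, and intestinal markers to 2464 ± 315 FPKM in *alh-6* L4 and 2469 ± 214 FPKM in WT L4. Without a fold threshold 2 of 12 neuronal markers were higher in *alh-6* L4, *unc-10* by 0.66 and *unc-18* by 0.26, with a list median of 0.19 beside -0.03 for all genes, and so was 1 of 8 intestinal markers, *ges-1* by 0.32. In day 3 adults 2 of 4 embryo markers tested were lower in *alh-6* without a fold threshold, where 4.18% of all genes were lower and 2.14% higher. *pes-10* at -0.58 and *elt-7* at 0.23 did not pass. The embryo list summed to 12.1 ± 1.32 FPKM in *alh-6* day 3 adults and 18.2 ± 1.48 FPKM in WT day 3 adults. At L4 it summed to 13.9 ± 0.868 FPKM in *alh-6* and 11.5 ± 1.06 FPKM in WT (SD, n = 3). Of the 10 embryo markers only 1, *elt-7*, reached the minimum level at L4, so the L4 sum does not stand for the list. The neuronal list summed to 303, 294 and 321 FPKM in *alh-6* day 3 adults and to 339, 351 and 348 FPKM in WT day 3 adults, which did not overlap, with a list median of -0.17 and 0 of 9 markers tested past the adjusted p. The part of these markers in the values of the insulin-like genes was not tested.

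Whether the genotype difference itself changed between stages was tested by a genotype by stage term over 12 libraries, which is positive where the *alh-6* effect is more positive in day 3 adults. Of 23 members tested by limma 0 were called in either direction, beside 0.966% of all genes called higher and 1.95% called lower. 5 members had an unadjusted p under 0.05, and limma-voom called 0. These were *ins-24* at 1.67 (SE 0.48, adjusted p = 0.053), *ins-28* at -2.04 (SE 0.61, adjusted p = 0.0638), *ins-19* at -1.95 (SE 0.60, adjusted p = 0.0687), *ins-11* at -2.13 (SE 0.83, adjusted p = 0.147) and *ins-18* at 1.21 (SE 0.54, adjusted p = 0.208). The lower level of *ins-19* in *alh-6* day 3 adults was therefore not shown to differ from its difference at L4, where it was almost unread. Leaving out single libraries moved this count between 0 and 1 for higher and between 0 and 2 for lower. *ins-24* was called without WT L4 replicate 2 and without WT day 3 replicate 3. *ins-28* was called without WT L4 replicate 3, together with *ins-11*, and without WT day 3 replicate 3, and *ins-19* was called without *alh-6* day 3 replicate 3.

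The comparison of day 3 adults with L4 asked how the family changed with stage in each genotype, and most members were lower in day 3 adults. Without any filter, the mean of 30 of 39 members was lower in *alh-6* day 3 adults than in *alh-6* L4 and that of 8 was higher, and *ins-8* had no reads. In WT 28 were lower, 8 higher and 3 had no reads at either stage. The matching shares over all genes were not worked out, and the medians of all genes tested, given below, were also negative. These unfiltered counts therefore have no background beside them. In *alh-6*, 17 of 21 members tested were called lower in day 3 adults and 2 called higher, beside 43.5% of all genes called lower and 22.7% called higher. In WT, 15 of 22 were called lower and 4 called higher, beside 41.5% of all genes called lower and 22.7% called higher. The median difference was -2.44 in *alh-6* and -2.21 in WT, beside medians for all genes tested of -0.55 in *alh-6* and -0.40 in WT. A member at 1 FPKM at one stage only had to differ between stages to be tested: 15 of the 21 in *alh-6* and 13 of the 22 in WT passed through L4 libraries alone, and 3 in *alh-6* and 5 in WT through day 3 libraries alone, so these counts and medians do not describe all 39 members.

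The calls were largely of the same genes. Of the members called lower 14 were shared by both genotypes, which is 82.4% of the *alh-6* calls and 93.3% of the WT calls. *ins-7* and *ins-28* were tested in both and called lower in *alh-6* alone. *ins-11* was called lower in *alh-6* and was too low to test in WT, where it was called lower with no minimum level and with all 12 libraries in 1 fit. *ins-3* was called lower in WT and was too low to test in *alh-6*, where it was called lower in those settings and by limma-voom. *ins-23* and *ins-34* were called higher in both, *ins-22* in WT alone, and *ins-19* in WT, while it was too low to test in *alh-6*. With no minimum level and with all 12 libraries in 1 fit, *ins-19* was called higher in *alh-6* too. None of these differences between genotypes passed the genotype by stage test. With libraries rescaled by the median ratio, the median of all genes was -0.22 in *alh-6* and -0.13 in WT, an upward shift of 0.33 in *alh-6* and 0.27 in WT. On that scale *alh-6* had 16 members called lower and 3 higher, and WT had 15 lower and 4 higher.

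The agonist *daf-28* (WBGene00000920, chromosome V, bases 19815133 to 19816454) fell in both genotypes. It had 0.557, 0.409 and 0.673 FPKM in *alh-6* day 3 adults, against 14.3, 16.2 and 18.5 FPKM in *alh-6* L4. WT day 3 adults had 0.401, 0.259 and 0.364 FPKM, against 14.8, 13.1 and 11 FPKM in WT L4. The stages were far apart in both genotypes, with 2 to 5 reads left in each day 3 library. The difference was -4.68 in *alh-6* (SE 0.21, limma adjusted p = 1.57e-08) and -4.89 in WT (SE 0.20, adjusted p = 3.14e-08).

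*ins-37* (WBGene00002120, chromosome II, bases 13835101 to 13836107) fell in both genotypes too. It had 0, 0.195 and 0.289 FPKM in *alh-6* day 3 adults, against 11.6, 14.5 and 12.8 FPKM in *alh-6* L4, and 0.191, 0.0926 and 0.694 FPKM in WT day 3 adults, against 14.7, 12.0 and 13.7 FPKM in WT L4. The differences were -5.85 in *alh-6* (SE 0.46, limma adjusted p = 2.3e-06) and -5.25 in WT (SE 0.47, adjusted p = 7.63e-06). Its exons share 171 bases with the snRNA gene *F08G2.9* on the same strand and 192 bases with the ncRNA gene *R05D7.8* on the other, of 955 bases in the annotation, and the length behind its FPKM was 512 bases, so its level against other members depends on the gene model used.

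*ins-30* (WBGene00002113, chromosome I, bases 14034954 to 14036057) also fell. It had 0.0775, 0.38 and 0.374 FPKM in *alh-6* day 3 adults, against 4.38, 6.95 and 5.77 FPKM in *alh-6* L4 (difference -4.05, SE 0.39, limma adjusted p = 5.04e-06). In WT it had 0.149, 0.072 and 0 FPKM in day 3 adults, against 4.44, 4.94 and 4.50 FPKM at L4 (difference -4.86, SE 0.33, adjusted p = 6.82e-07). The 3 WT day 3 libraries held 3 reads in all, and the 3 WT L4 libraries 189, a ratio of 65.0 with a counting interval of 21.9 to 318. *ins-33* behaved alike in counts, with 10 reads in *alh-6* day 3 adults, 2 in WT day 3 adults and at least 28 in every L4 library.

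The other agonists of known role fell in both genotypes. *ins-6* (WBGene00002089) had 0.109, 0.107 and 0.21 FPKM in *alh-6* day 3 adults and 0.313, 0.101 and 0.569 FPKM in WT day 3 adults, all below every L4 library (differences -3.22, SE 0.30, in *alh-6* and -2.66, SE 0.41, in WT). *ins-4* (WBGene00002087), its neighbour in the run on chromosome II, had 0.0885, 0.26 and 0.257 FPKM in *alh-6* day 3 adults and 0.255, 0.247 and 0.309 FPKM in WT day 3 adults (differences -2.44, SE 0.35, in *alh-6* and -2.37, SE 0.22, in WT). Both lay between 1 and 6 reads in each day 3 library. *ins-7* (WBGene00002090) fell less: its day 3 values given above stood against 2.32, 2.49 and 2.74 FPKM in *alh-6* L4 and 3.44, 2.4 and 3.67 FPKM in WT L4. Its difference was -1.35 in *alh-6* (SE 0.30, limma adjusted p = 0.00184) and called, and -0.78 in WT (SE 0.21, adjusted p = 0.00693), which is under 2-fold.

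The antagonists *ins-1* and *ins-18* fell too. *ins-1* (WBGene00002084) had 0.193, 0.189 and 0.186 FPKM in *alh-6* day 3 adults and 0.123, 0.239 and 0.168 FPKM in WT day 3 adults, against L4 values of at least 1.175 FPKM in *alh-6* and 1.33 FPKM in WT. Its differences were -3.05 in *alh-6* (SE 0.38) and -2.73 in WT (SE 0.29). *ins-18* (WBGene00002101) had 4.3, 3.37 and 2.44 FPKM in *alh-6* L4 and 3.82, 2.62 and 1.32 FPKM in WT L4, and fell by 1.94 in *alh-6* (SE 0.30) and 3.15 in WT (SE 0.40).

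*ins-17* (WBGene00002100, chromosome III, bases 4476918 to 4477572) was among the 3 highest members in every group and fell too. It had 4.43, 2.34 and 4.78 FPKM in *alh-6* day 3 adults, against 10.9, 12.1 and 8.92 FPKM in *alh-6* L4, and 3.35, 3.65 and 3.12 FPKM in WT day 3 adults, against 10.2, 13.8 and 8.57 FPKM in WT L4. The stages did not overlap, and the differences were -1.49 in *alh-6* (SE 0.26) and -1.63 in WT (SE 0.18).

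*ins-27* (WBGene00002110, chromosome I, bases 14027236 to 14027588) had 2.18, 2.13 and 6.96 FPKM in *alh-6* day 3 adults, against 7.24, 12.33 and 8.58 FPKM in *alh-6* L4. WT day 3 adults had 3.26, 1.64 and 1.42 FPKM, against 7.79, 8.16 and 9.78 FPKM in WT L4. In *alh-6* the highest day 3 library nearly reached the lowest L4 library. The difference was -1.49 in *alh-6* (SE 0.48, limma adjusted p = 0.0209) and -2.06 in WT (SE 0.28, adjusted p = 0.000105). The *alh-6* call was lost in 3 of 13 settings, where the fit left out L4 replicate 2 (-1.28), day 3 replicate 1 (-1.22) or day 3 replicate 2 (-1.21).

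A minority of the family went the other way. *ins-34* (WBGene00002117, chromosome IV, bases 14106574 to 14107737) had 5.72, 4.29 and 4.70 FPKM in *alh-6* day 3 adults, against 0.304, 0.248 and 0.344 FPKM in *alh-6* L4. WT day 3 adults had 4.90, 5.20 and 5.73 FPKM, against 0.225, 0.343 and 0.48 FPKM in WT L4. No library of one stage came near the other in either genotype, with at least 36 reads in a day 3 library, against 2 to 4 reads in an L4 library. The difference was 3.65 in *alh-6* (SE 0.22, limma adjusted p = 1.36e-07) and 3.62 in WT (SE 0.25, adjusted p = 7.53e-07). Of its 507 exonic bases 82 overlap *nkcc-1* on the opposite strand, and whether reads were counted by strand is not given in the sources used here. The level of *nkcc-1* was 51.6 FPKM in *alh-6* day 3 adults and 52.1 FPKM in WT day 3 adults, against 43.3 FPKM in *alh-6* L4 and 58.9 FPKM in WT L4.

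*ins-19* was the largest rise in WT. Its WT day 3 libraries held 127 reads and its WT L4 libraries 2, a ratio of 61.5 with a counting interval of 16.7 to 513, and the fitted difference was 4.96 (SE 0.36, limma adjusted p = 1.06e-06). In *alh-6* the day 3 libraries held 18 reads and the L4 libraries 0. Against a floor of 3 reads over the L4 group this is at least 6.37-fold higher, and the gene was too low for a test in the *alh-6* fit. *ins-19* thus rose in WT, and its reads were also more frequent in *alh-6* day 3 adults than at L4.

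The run of 3 genes on chromosome III held the remaining called rises. *ins-23* had 3.96, 1.52 and 3.33 FPKM in *alh-6* day 3 adults, against 0, 0.351 and 0.162 FPKM in *alh-6* L4, and 2.31, 2.24 and 1.8 FPKM in WT day 3 adults, against 0.159, 0.485 and 0.17 FPKM in WT L4. Its differences were 3.63 in *alh-6* (SE 0.57, limma adjusted p = 0.000354) and 2.68 in WT (SE 0.34, adjusted p = 5.27e-05). *ins-22* had 2.2, 1.38 and 2.73 FPKM in *alh-6* day 3 adults and 1.5, 1.46 and 1.5 FPKM in WT day 3 adults, against 0.783, 1.92 and 1.33 FPKM in *alh-6* L4 and 0.725, 0.589 and 0.464 FPKM in WT L4. It was called in WT at 1.22 (SE 0.22, adjusted p = 0.000639) and not in *alh-6*, where the stages overlapped (0.64, SE 0.35, adjusted p = 0.105). The third gene of the run, *ins-21*, had 1 read in an *alh-6* L4 library, 1 in a WT L4 library and none elsewhere.

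**Figure D3:**
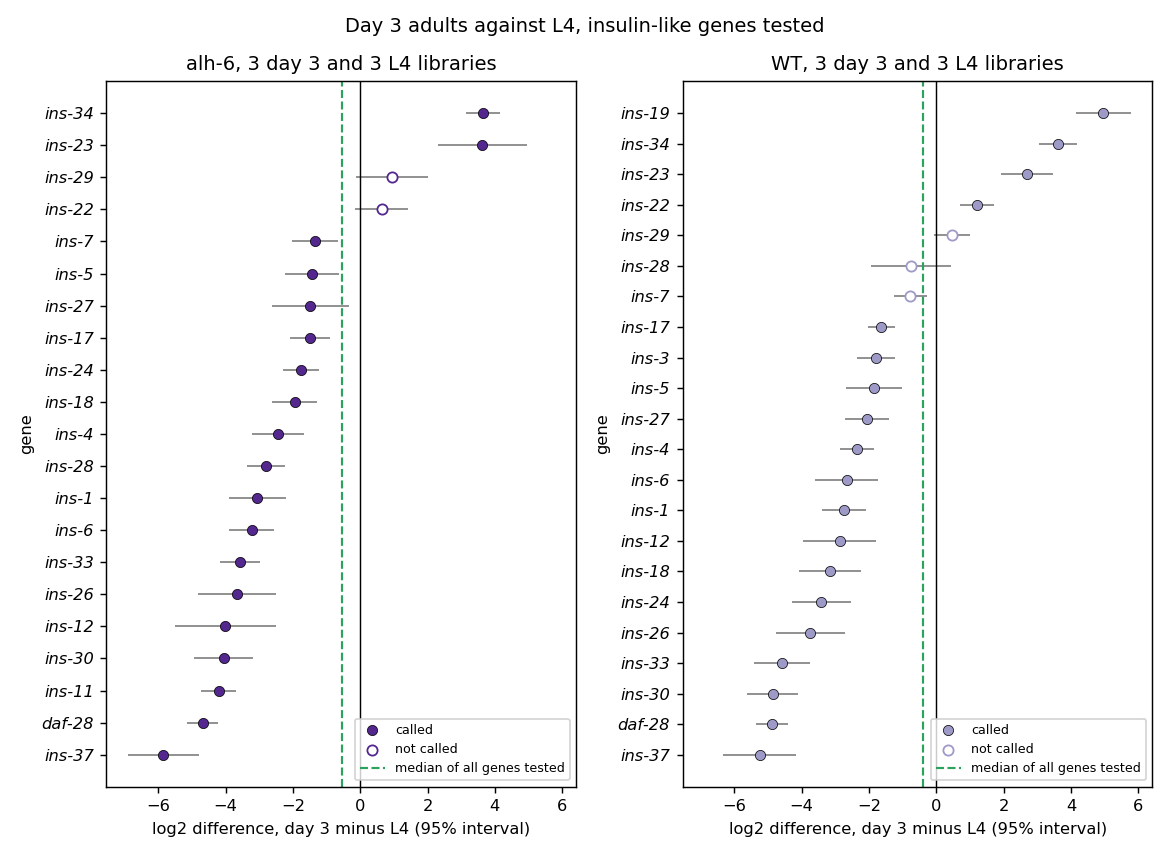
Difference between day 3 adults and L4 for each insulin-like gene tested, in *alh-6* (left, 21 genes) and in WT (right, 22 genes), as log2(FPKM + 0.1) of day 3 minus L4 with the 95% interval from limma (n = 3 libraries per group). Filled points are called genes, 17 lower and 2 higher in *alh-6* and 15 lower and 4 higher in WT, and the dashed line is the median of all genes tested.

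Members of one run did not share a pattern throughout. In the run of 7 on chromosome I, *ins-24*, *ins-26*, *ins-27* and *ins-30* were called lower in day 3 adults of both genotypes, while *ins-29* was not called in either, with differences of 0.94 in *alh-6* and 0.46 in WT. In *alh-6* it was called higher after rescaling by the median ratio, without L4 replicate 1 and without day 3 replicate 2. *ins-28* was called lower in *alh-6* (-2.80, SE 0.25) and not in WT (-0.76, SE 0.51), and *ins-25* was too low to test. In the run of 6 on chromosome II, *ins-4*, *ins-5* and *ins-6* were called lower in both genotypes and *ins-3* in WT, whereas *ins-2* at one end and *ins-20* at the other had at most 4 reads in any library. *ins-12* was called lower in both genotypes (-4.0, SE 0.63, in *alh-6* and -2.88, SE 0.47, in WT). Its neighbour *ins-11*, an intestinal peptide known from pathogen avoidance, had 0 reads in *alh-6* day 3 adults and 31 in *alh-6* L4, which is at least 9.73-fold lower against a floor of 3 reads over the group. In WT *ins-11* had 3 reads in day 3 adults and 19 at L4. *ins-13*, the first of that run, had 3 reads in all libraries together and shares 87 of its 308 exonic bases with *acdh-2* on the same strand.

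**Figure D4:**
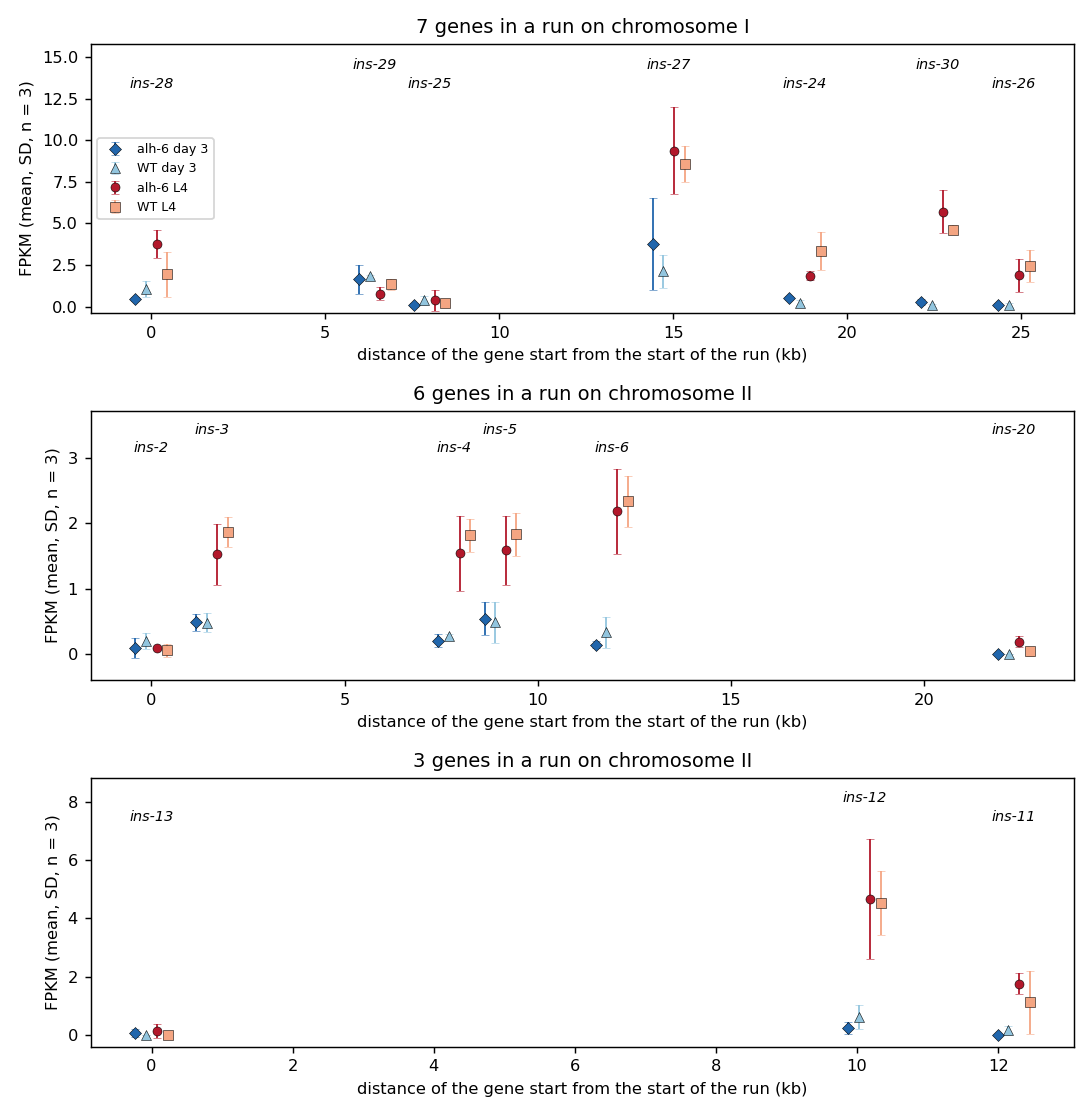
Level of the insulin-like genes in the 3 longest runs, against the distance of each gene's start from the start of its run in kb (points are means, bars are SD, n = 3 libraries, groups shifted sideways so that they can be seen). Within each run some genes stood higher at L4 than in day 3 adults, such as *ins-27* and *ins-30* on chromosome I, while neighbours such as *ins-25*, *ins-2*, *ins-20* and *ins-13* stayed near 0 in every group.

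The 16 members under 1 FPKM give only limits. *ins-35* had 0, 0 and 1 reads in *alh-6* day 3 adults, 6, 1 and 3 in WT day 3 adults, 1, 2 and 11 in *alh-6* L4 and 1, 12 and 0 in WT L4. *ins-9* had 1 read over the day 3 libraries of each genotype, against 17 in *alh-6* L4 and 16 in WT L4. A ratio from so few reads is wide: for *ins-9* it was 16-fold lower in *alh-6* day 3 adults, with a counting interval of 2.51 to 669. The rest of these genes had at most 7 reads in any library, except *ins-31* with 15 in a single one.

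Genes that act below the ligands were described as well. Neither genotype comparison called any of the 17 genes tested among 20 of the receptor, its kinases and phosphatases, and DAF-16 with its regulators. Over all genes 0.409% were called in each direction in day 3 adults, and 2.45% were called higher and 0.881% lower at L4. A count of 0 of 17 is near these shares. Without a fold threshold, 1 of the 17 was higher in *alh-6* L4, the kinase gene *sgk-1* by 0.48 (limma adjusted p = 0.0287), and 1 was lower. At L4 8.19% of all genes were higher and 7.15% lower by this rule. In *alh-6* day 3 adults no gene of this list passed without a fold threshold, where 2.14% of all genes were higher and 4.18% lower. The receptor *daf-2* had 64 ± 6.7 FPKM in *alh-6* day 3 adults and 62.1 ± 0.657 FPKM in WT day 3 adults, and 16.3 ± 1.06 FPKM in *alh-6* L4 and 18.1 ± 1.2 FPKM in WT L4 (SD, n = 3).

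Between stages the receptor and most of the kinases tested were called higher, unlike most ligands. In *alh-6* day 3 adults 10 of the 17 were called higher and 2 lower, and in WT day 3 adults 9 were called higher and 1 lower, with list medians of 1.33 in *alh-6* and 1.29 in WT. Over all genes 22.7% were called higher in each genotype, 43.5% were called lower in *alh-6* and 41.5% in WT, and the medians were -0.55 in *alh-6* and -0.40 in WT. *daf-2* was higher by 1.96 in *alh-6* and 1.77 in WT, *age-1* by 1.67 in both, *akt-1* by 1.45 in *alh-6* and 1.61 in WT, and *pdk-1* by 2.74 in *alh-6* and 3.03 in WT. *akt-2* was not called in either genotype, with a difference of 0.18 in each. *sgk-1* was lower, with differences of -2.50 in *alh-6* and -2.05 in WT. *daf-16* was near its L4 level, at 72.5 FPKM in *alh-6* day 3 adults and 73.8 FPKM in WT day 3 adults, against 58.7 FPKM in *alh-6* L4 and 61.2 FPKM in WT L4, and its differences of 0.30 in *alh-6* and 0.27 in WT were under 2-fold. All 10 oocyte markers were higher in the same libraries, and the part of the germline in these values was not tested.

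Most genes that cut and release the peptides were called lower in day 3 adults. Of 14 convertases, peptidases and dense core vesicle genes, 9 were called lower and 0 higher in day 3 adults of each genotype, with list medians of -1.77 in *alh-6* and -1.80 in WT, beside 43.5% of all genes called lower in *alh-6* and 41.5% in WT. Without a fold threshold *tbc-8* was higher in both genotypes, by 0.57 in each, and *unc-108* in WT by 0.14. The convertase gene *egl-3* differed by -2.0 in *alh-6* and -2.33 in WT, the convertase gene *aex-5* by -2.39 in *alh-6* and -2.21 in WT, and the dense core vesicle gene *ida-1* by -2.92 in *alh-6* and -3.39 in WT. Of 12 neuronal markers 9 were called lower and 1 higher in the same libraries of each genotype, with medians of -2.11 in *alh-6* and -1.85 in WT, and *unc-119* was the one higher (1.21 in *alh-6* and 1.39 in WT). Without a fold threshold 2 of the 12 were higher in each genotype, in WT *unc-119* and *snb-1* (0.66). The neuronal sum was not lower, at 306 ± 13.7 FPKM in *alh-6* day 3 adults and 346 ± 6.4 FPKM in WT day 3 adults, against 301 ± 20.7 FPKM in *alh-6* L4 and 300.3 ± 8.35 FPKM in WT L4 (SD, n = 3). A sum is led by its highest markers, so it does not describe the 9 markers called lower. Of 8 intestinal markers 6 were called lower in each genotype. Their part in the fall of the insulin-like genes was not tested.

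Between genotypes none of the processing and release genes was called, of 13 tested in day 3 adults and 14 at L4. Few genes of any kind were called: 0.409% in each direction in day 3 adults, and 2.45% higher and 0.881% lower at L4. Without a fold threshold *egl-3* and its chaperone *sbt-1* were higher in *alh-6* at both stages, by 0.62 and 0.68 in day 3 adults (limma adjusted p = 0.0125 and 0.0197) and by 0.29 and 0.39 at L4 (adjusted p = 0.0403 and 0.00633). *ida-1* was also higher in *alh-6* day 3 adults, by 0.65 (adjusted p = 0.0493). By the same rule 2.14% of all genes were higher in *alh-6* day 3 adults and 8.19% in *alh-6* L4.

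Of 21 genes that DAF-16 is known to raise or lower, 0 were called between the genotypes at either stage. This is near the shares of all genes called, 0.409% in each direction in day 3 adults, and 2.45% higher and 0.881% lower at L4. Without a fold threshold, 5 of the 17 tested were higher and 1 lower in *alh-6* day 3 adults, with a list median of 0.30 beside -0.08 for all genes, of which 2.14% were higher and 4.18% lower. Among the genes raised by DAF-16 these were *icl-1* at 0.64, *lea-1* at 0.43, *gpd-2* at 0.39 and *ctl-2* at 0.30. Among those lowered by DAF-16 *dod-24* was higher by 0.51 and *dod-23* differed by -0.54. Taken apart, the median was 0.35 for the 12 tested genes raised by DAF-16 and -0.09 for the 5 lowered by it. The metallothionein gene *mtl-1* had 152 ± 35.4 FPKM in *alh-6* day 3 adults and 88 ± 5.35 FPKM in WT day 3 adults (SD, n = 3), a difference of 0.76 that did not pass (adjusted p = 0.0568). At L4 2 of 15 tested were higher in *alh-6*, *icl-1* by 0.30 and *dod-24* by 0.49, and 3 were lower, with a list median of -0.06 beside 8.19% of all genes higher and 7.15% lower. Of the lower ones *sip-1* (-0.52) and *hsp-12.3* (-0.74) are raised by DAF-16 and *dod-23* (-0.54) is lowered by it. In the genotype by stage fit 3.37% of all genes were higher and 4.01% lower without a fold threshold, and of this list *lea-1* (0.61) and *sip-1* (0.69) were higher. Between stages, of the 12 tested genes raised by DAF-16, 6 were called higher and 4 lower in *alh-6*, and 6 higher and 3 lower in WT. Their medians were 1.16 in *alh-6* and 0.67 in WT. Of the 5 tested genes lowered by DAF-16, 1 was called higher and 4 lower in each genotype. Their medians were -1.53 in *alh-6* and -1.55 in WT. Over all genes 22.7% were called higher in each genotype, and 43.5% were called lower in *alh-6* and 41.5% in WT.

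**Figure D5:**
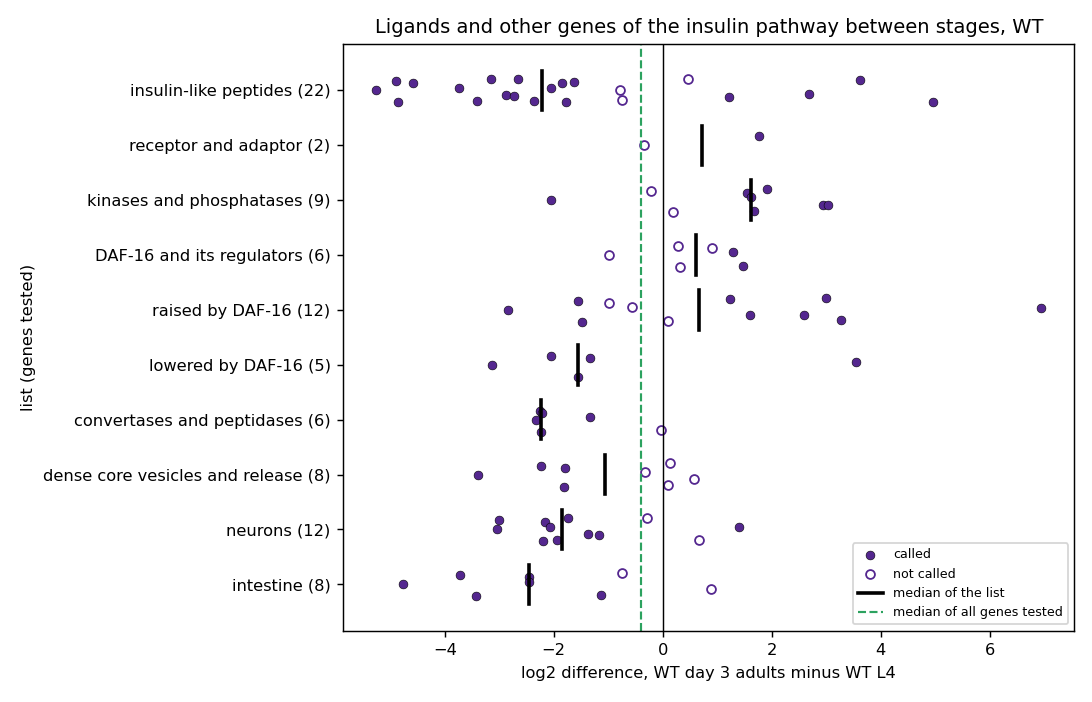
Difference between WT day 3 adults and WT L4, as log2(FPKM + 0.1) of day 3 minus L4, for each gene tested in the insulin-like family and in lists of its receptor, signalling genes, DAF-16 targets, processing and secretion genes, and neuronal and intestinal markers (points are genes, filled where called, bars are list medians, and the dashed line is the median of all genes). The ligands, the processing genes and the neuronal and intestinal markers lie mostly below 0, and the kinases and phosphatases mostly above 0.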

How the data were processed

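Per the labels, RNA of whole worms was prepared with the NEBNext Ultra kit. The submitters' processing notes name CASAVA 1.8, Bowtie2 2.2.3, TopHat2 2.0.12, HTSeq 0.6.1, DESeq 1.18.0 and build ce11, whose assembly is WBcel235. Values deposited by the authors were FPKM for every library and gene and, for each group, a mean signal of read counts divided by size factors. The deposited tables also hold the authors' log2 fold changes and p-values, which were not used. Joining both kinds of value gave whole reads for 100% of values (tolerance 0.05). Symbols and positions came from WBcel235 annotation release 115, which held 46364 of 46726 identifiers.

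limma 3.58.1 in R 4.3.3 (lmFit, eBayes with trend and robust) was run on log2(FPKM + 0.1), which understates changes of low genes, for genes at 1 FPKM or more in at least 3 libraries of a fit. Each comparison used its own 6 libraries, and the genotype by stage term all 12. Calls needed a Benjamini-Hochberg adjusted p under 0.05 over all genes and a log2 change of at least 1. Named members were those called between genotypes, up to 3 of the largest called falls and rises of each stage comparison among members with a mean of at least 5 FPKM in a group, the 6 highest means, and members of known role. Other members given by library were chosen after their values were seen. The members and lists were chosen with earlier results of these data known. Replicate numbers did not pair the samples. The fits were tested on simulated data, and the alternatives tried are given with their effect below. One gene of the signalling list is not reported here by name.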

Additional observations from a re-analysis of the deposited data

How the results depend on the processing

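The alternatives were pseudocounts of 1 and 0.01, no minimum level, rescaling by the median ratio, limma-voom on the recovered reads, all 12 libraries in 1 fit, a replicate block, and each library left out in turn. No named member reversed its direction. Of 298 repeats over 23 pairs of a named member and a comparison in which it was called, 293 kept the call and 5 lost it: *ins-19* between genotypes in day 3 adults (-2.60 without *alh-6* day 3 replicate 2), *ins-7* between stages in *alh-6* (-0.85 at a pseudocount of 1), and *ins-27* between stages in *alh-6* (3 times, without single libraries). Leaving out libraries moved the members called in *alh-6* day 3 adults against WT between 0 and 2 lower, and kept 0 higher. At L4 it moved them between 0 and 2 higher (*ins-11* and *ins-28* without WT L4 replicate 3) and 0 and 1 lower (*ins-24* without WT L4 replicate 2). For the genotype by stage term it gave 0 to 1 higher and 0 to 2 lower. Between stages it gave 2 to 3 higher and 16 to 17 lower in *alh-6*, and 4 higher and 15 lower in WT each time. With all 12 libraries in 1 fit, 2 members (*ins-18* and *ins-33*) were called higher in *alh-6* day 3 adults. limma-voom called 1 member higher with stage in *alh-6* in place of 2, as the call of *ins-23* was lost. At a pseudocount of 1 the stage calls of *ins-3*, *ins-5* and *ins-22* were lost in WT, and those of *ins-5*, *ins-7* and *ins-24* in *alh-6*. Apart from *ins-7*, these genes are outside the repeats counted above. For the genotype by stage term, rescaling called 1 member higher (*ins-24*) and a pseudocount of 1 called 1 lower (*ins-19*). The cause was not tested.

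Same-numbered libraries correlated between -0.07 and 0.14 in their deviations from group means, so the numbers were not taken as pairs. The replicate block changed no count of members called, and over all genes it called 327 higher and 118 lower at L4, in place of 339 and 122. Over all genes in day 3 adults, *alh-6* had 43 higher and 43 lower calls, and after rescaling 50 and 20. Depth limits the 16 members under 1 FPKM, none of which reached the minimum level. With no minimum, *ins-9*, *ins-20* and *ins-32* were called lower between stages in *alh-6* and *ins-9* in WT.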
